A study of Mus musculus with 9 samples.

Results

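The loss of 1 copy of Rnh1 was examined in the mouse yolk sac at embryonic day 9.5 by setting 3 arrays of heterozygous samples (HET, Rnh1+/-) against 3 arrays of wild-type samples (WT, Rnh1+/+). These are 6 of the 9 arrays of the study, and the other 3 are of homozygous knockout samples (KO, Rnh1-/-). All groups share the mixed SV 129/C57BL/6 strain background and received no treatment, and they differ by label in the Rnh1 genotype alone. RNA was taken from whole yolk sacs that, per the labels' protocols, had been freed of maternal tissue. Embryo sex and any pooling of yolk sacs are not stated, and nothing says that samples of a genotype came from separate animals or litters. The p-values therefore cover only the spread among these samples, which may be technical. Of 28350 probe sets on the array, the 21780 that name exactly 1 gene symbol were kept, which covered 19933 genes. Of these, 13207 were bright enough to be tested, with a signal over the 40th percentile of the array in 3 or more of the 9 arrays, and 6726 dim genes were left out. Levels are log2 signals, so a difference of 1 is a 2-fold change and a difference of 0.58 a 1.5-fold change.

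Rnh1 encodes the ribonuclease inhibitor, a leucine-rich repeat protein of the cytosol that binds ribonucleases of the pancreatic (ribonuclease A) family very tightly and blocks them. The yolk sac at this stage is the site of primitive blood formation. It consists of a visceral endoderm layer that secretes plasma proteins and takes up nutrients, and a mesoderm layer that forms blood islands, vessels and smooth muscle. Outside it lie the parietal endoderm, which deposits the thick Reichert's membrane of laminin and collagen IV, then trophoblast giant cells, and then the maternal decidua. The comparison asks how these tissues stand when Rnh1 is present in a single copy.

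The tissue's defining transcripts were near the top of the scale in all 6 arrays. Hbb-y, an embryonic globin, read 13.39, 13.41 and 13.39 in WT and 13.35, 13.34 and 13.32 in HET. Afp, alpha-fetoprotein of the visceral endoderm, read 13.02, 13.08 and 13.02 in WT and between 13 and 13.09 in HET. Apoa1, an apolipoprotein made by the same layer, lay between 13.08 and 13.19 on the 6 arrays. The medians of the 9 arrays over all their probe sets ran from 7.07 to 7.20.

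Rnh1 itself was lower in every HET array than in every WT array. Its level was 10.39, 10.42 and 10.32 in WT and 9.75, 9.75 and 9.77 in HET. KO read 6.28, 6.78 and 6.87, so the 3 genotypes did not overlap. HET lay 0.62 below WT (log2 difference -0.62, SE 0.13, 95% interval -0.92 to -0.33), which is 64.9% of the WT signal with an interval from 52.8% to 79.8%. A value of 50%, a log2 difference of -1, lay outside that interval. The mean KO signal is not 0 on this probe set, and after it was subtracted from both groups HET stood at 62% of WT. In the limma model fitted to all 13207 genes the difference ranked 2nd by unadjusted p but had an adjusted p of 0.939. The two-sided exact permutation test over the 6 arrays gave p = 0.1, the smallest that 3 against 3 can give. The spread of the KO arrays (SD 0.32, against 0.05 in WT and 0.01 in HET) enters the error of that model. With only the WT and HET arrays in the model the SE was 0.05, the interval ran from 60.1% to 70.1% of WT, and the adjusted p was 0.0614. Without KO 1 the adjusted p was 0.0224. With array weights it was 0.00597, but that fit stopped before its convergence tolerance. It put 2773 genes under an unadjusted limma p of 0.05, beside 327 in the main model.

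**Figure D1:**
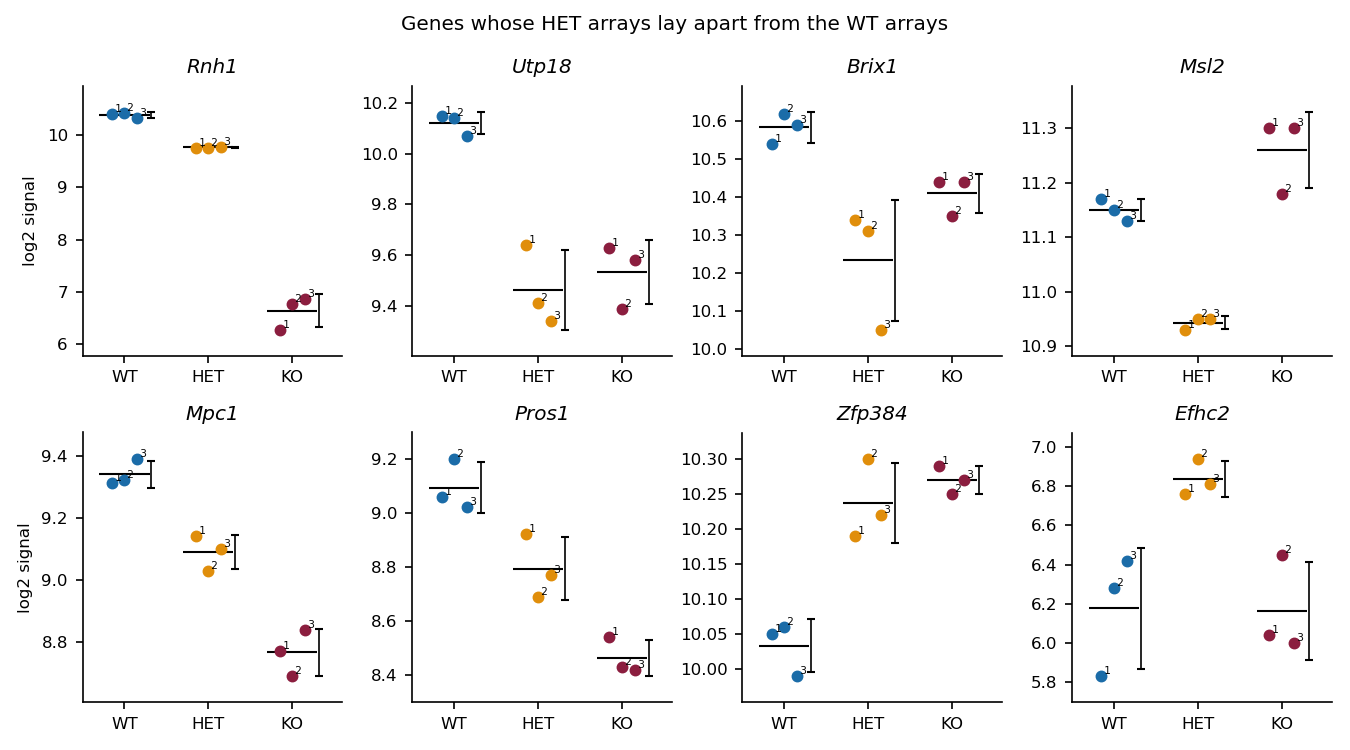
Log2 signal (vertical axis, own scale in each panel) of 8 genes on the 9 arrays, with points numbered by replicate, horizontal bars for genotype means and error bars for the SD (n = 3). In all 8 panels the HET points lie wholly to one side of the WT points, by 0.62 for the Rnh1 means and by 0.21 for the Msl2 means.

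The array carried 15 members of the ribonuclease A family, the enzymes that the inhibitor binds, and 14 of them were too dim to be tested. The exception was Ang6, an angiogenin, at 6.63, 6.42 and 6.63 in WT and 6.81, 6.63 and 6.76 in HET, a difference of 0.18 whose interval ran from -0.01 to 0.36. The groups met at 6.63. The dim members included Rnase1, the pancreatic enzyme, whose 9 arrays lay between 5.54 and 6.29. The other ribonucleases, which the inhibitor is not known to bind, were mostly bright. All 19 tested had an interval inside 1.5-fold, beside 95.7% of all genes tested. Among these ribonucleases Dicer1, which cuts microRNA precursors, read 10.37, 10.36 and 10.38 in WT and 10.24, 10.22 and 10.23 in HET. That is a small difference of -0.14 (interval -0.28 to 0.00) with no overlap between the groups. Smg6, an endonuclease of nonsense-mediated decay, also gave -0.14, and Eri1, an exonuclease of histone messages, -0.10.

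Genes that flank Rnh1 were listed as the 15 nearest on each side in the reference gene table, and 26 of 30 were tested. None was 1.5-fold apart, beside 0.326% of all genes tested, and 25 of the 26 (96.2%) had an interval inside 1.5-fold, beside 95.7%. Both are near the shares over all genes. Their median difference was 0.08, beside -0.00 over all genes, and 21 of the 26 were above 0. Deaf1, a transcription factor, had the smallest p of them, with 8.47, 8.53 and 8.57 in WT and 8.61, 8.63 and 8.71 in HET. Ptdss2, which makes phosphatidylserine, had the lowest difference (-0.15), and its groups overlapped. Gatd1 gave 0.12.

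Over all genes, HET and WT were close. With limma and Benjamini-Hochberg adjustment, 0 of 13207 genes (0%) passed an adjusted p of 0.05, and 327 (2.48%) had an unadjusted p under 0.05, where 116 were higher (0.878%) and 211 lower (1.6%). The count past the adjusted test was 5 without WT 2, 1 without KO 1 and 6 with array weights. The median size of the difference was 0.06, and 99% of genes differed by less than 0.32. The 95% interval lay inside 1.5-fold in either direction for 12638 genes (95.7%) and inside 2-fold for 13112 (99.3%). For the remaining 569 genes (4.31%) the main model, which also holds the KO arrays, could not place the difference within 1.5-fold. The spread of the KO arrays enters these intervals and the interval shares given for the gene lists. With only the 6 arrays of WT and HET in the model, 96.7% of genes had an interval inside 1.5-fold. In the main model KO against WT, by contrast, passed for 3101 genes (23.5%), and KO against HET for 2875 (21.8%). Both use arrays that HET against WT also uses. Only 43 genes (0.326%) were at least 1.5-fold apart between HET and WT, 4 higher (0.0303%) and 39 lower (0.295%), and 20 (0.151%) were at least 2-fold apart.

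**Figure D2:**
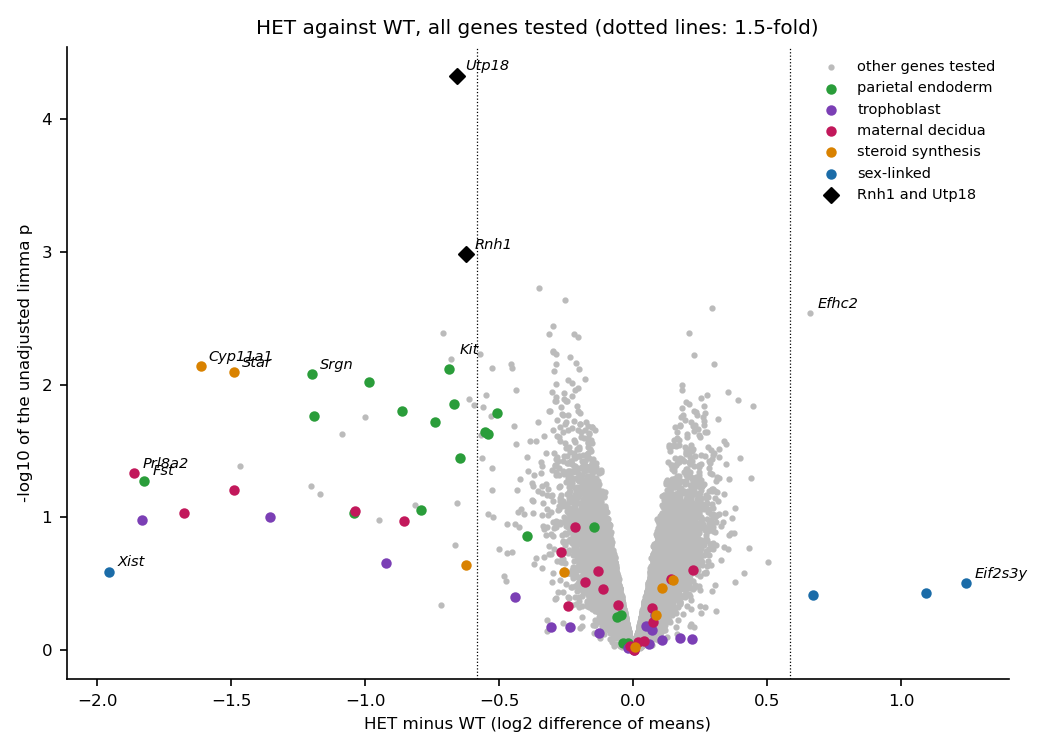
HET minus WT (horizontal axis, log2 difference of means) against -log10 of the unadjusted limma p (vertical axis) for 13207 genes, 1 point a gene, with members of 5 gene lists coloured and dotted lines at 1.5-fold. Nearly all points lie between the dotted lines, and most of those to the left of them belong to the coloured lists of parietal endoderm, trophoblast, decidua and steroid synthesis.

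The genes most clearly apart relative to their spread were small in number and mostly small in size. All 3 HET arrays lay outside the WT range for 1351 genes (10.2%), of which 561 were higher (4.25%) and 790 lower (5.98%). Of these, 10 were also at least 1.5-fold apart (0.0757%), 9 lower (0.0681%) and 1 higher (0.00757%). Full separation of 3 arrays from 3 has an exact permutation p of 0.1. The 10.2% is near that share, so lack of overlap alone does not mark a gene out. Utp18, a subunit of the small-subunit processome that matures 18S ribosomal RNA, had the smallest p of all genes. It read 10.15, 10.14 and 10.07 in WT and 9.64, 9.41 and 9.34 in HET, a difference of -0.66 (SE 0.09, interval -0.86 to -0.45, adjusted p = 0.627 with limma). KO lay with HET at 9.63, 9.39 and 9.58, and KO minus HET was 0.07 (adjusted p = 0.654). Brix1, which is needed to build the large ribosomal subunit, read 10.54, 10.62 and 10.59 in WT and 10.34, 10.31 and 10.05 in HET (-0.35, interval -0.53 to -0.17). Its KO arrays, at 10.44, 10.35 and 10.44, lay between both groups.

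Others of the 10 lower genes with the smallest p had a KO level below HET. Mpc1, a subunit of the mitochondrial pyruvate carrier, read 9.31, 9.32 and 9.39 in WT and 9.14, 9.03 and 9.10 in HET. KO was lower still at 8.77, 8.69 and 8.84 (KO minus HET -0.32, adjusted p = 0.0074). Pros1, which encodes the anticoagulant protein S, had the same order of means, with -0.30 in HET against WT and -0.33 in KO against HET (adjusted p = 0.0169). Fkbp14, a prolyl isomerase of the endoplasmic reticulum, gave -0.30 and -0.31 (adjusted p = 0.0303). For Msl2, a component of the MSL histone acetyltransferase complex, HET stood apart from both other genotypes. It read 11.17, 11.15 and 11.13 in WT and 10.93, 10.95 and 10.95 in HET. KO read 11.30, 11.18 and 11.30, with KO minus HET at 0.32 (adjusted p = 0.00496). Hmcn1, an extracellular matrix protein, had a wide spread in HET at 8.26, 7.88 and 7.43 against 8.62, 8.74 and 8.34 in WT, a difference of -0.71 that became -0.50 without HET 3. The remaining 2 of that group, Arhgap6 (-0.32) and Znhit3 (-0.22), also had no overlap. Nipa1 (-0.44), Mgat4a (-0.55) and Plekha8 (-0.26) had some of the widest gaps between the lowest WT and the highest HET array.

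Fewer genes were higher in HET. Efhc2, an EF-hand protein of cilia, was the 1 gene at least 1.5-fold higher with no overlap. It lay above the 40th percentile on the 3 HET arrays and on 0 of the WT and KO arrays, so it entered the test only through HET and its difference is no more than a description. It read 5.83, 6.28 and 6.42 in WT and 6.76, 6.94 and 6.81 in HET (0.66), while KO, at 6.04, 6.45 and 6.00, lay with WT. Hamp2, a relative of the iron hormone hepcidin, read 7.07, 7.09 and 7.26 in WT and 7.38, 7.38 and 7.53 in HET (0.29, interval 0.13 to 0.45). Zfp384, a zinc finger transcription factor, read 10.05, 10.06 and 9.99 in WT and 10.19, 10.30 and 10.22 in HET (0.21, interval 0.08 to 0.33). The KO mean was above the HET mean in both, at 7.57, 7.50 and 7.50 for Hamp2 and at 10.29, 10.25 and 10.27 for Zfp384. Rhbdd2 and Cpt1c, a brain form of carnitine palmitoyltransferase, each gave 0.18 with no overlap. The others among the 10 higher genes with the smallest p, Ift57, Slc12a5, H2-M10.2, Slc7a3 and Tmem86a, lay between 0.20 and 0.39. Bhmt2, a methyltransferase of methionine metabolism, was 0.28 higher in HET, at 9.39, 9.73 and 9.38 against 9.25, 9.21 and 9.20, and in KO it was 1.11 below HET (adjusted p = 0.000964). Pllp (0.26) and Sema3a (0.34) completed the 6 widest gaps in this direction. Sema3a lay above the 40th percentile on 0 WT, 1 HET and 2 KO arrays. It entered the test only through HET and KO, so its difference too is no more than a description. Prp2, at 0.41 with overlap, was among the 8 largest differences.

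The 43 genes at least 1.5-fold apart were mostly members of lists for tissues that border the yolk sac, for steroid synthesis or for sex-linked transcripts. The lists for parietal endoderm, trophoblast, maternal decidua, steroid synthesis and sex-linked transcripts together held 26 of them, and 17 were in none of these lists. These lists were chosen with earlier results of these data known, and the tissue that a transcript came from was not measured. Of the 39 lower genes, 30 had their highest level of the 6 arrays on WT 3, and in 24 of the 43 the top 2 arrays were WT 1 and WT 3. The difference shrank most when WT 3 was left out for 28 genes and when HET 1 was left out for 10. A gene was said to follow 1 array when leaving that array out took away at least 50% of its difference. That held for 12 of the 43 (0.0909% of all genes tested), 9 of them following WT 3 and 3 following HET 1. Without WT 3, 28 genes were at least 1.5-fold apart, and without WT 2 there were 69.

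**Figure D3:**
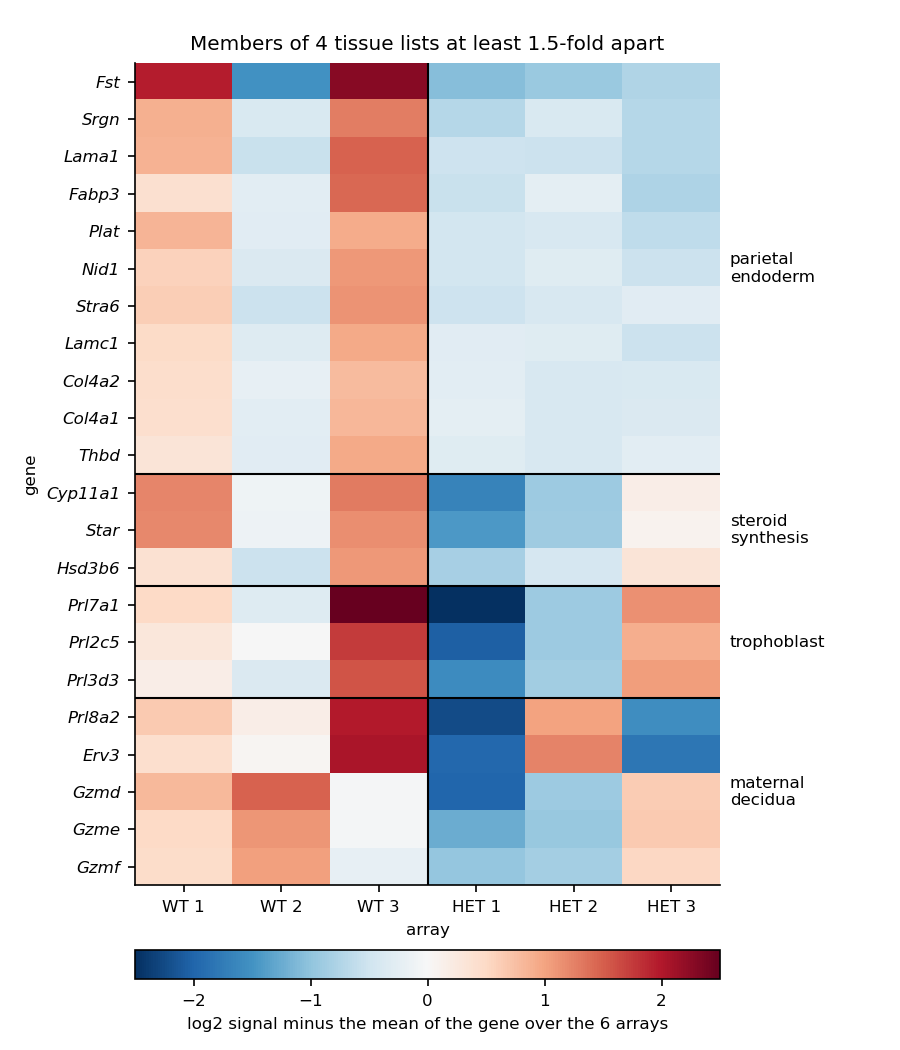
Log2 signal of 22 genes (rows) on the 3 WT and 3 HET arrays (columns), each shown relative to the mean of that gene over the 6 arrays. The parietal endoderm genes are above their mean on WT 1 and WT 3 and below it on WT 2 and the 3 HET arrays, while the trophoblast and decidua genes vary from array to array within both genotypes.

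Parietal endoderm genes made the largest such block, and it was carried by WT 1 and WT 3. All 22 listed genes were on the array, and of the 21 tested 11 (52.4%) were at least 1.5-fold lower in HET, none was higher, and all 21 differences were below 0. None of the 21 passed the adjusted test. The median difference was -0.65, beside a median of 0.00 over all genes tested, and its share of genes 1.5-fold lower stands beside 0.295% of all genes. The mean level of the list was 10.37, 9.66 and 10.73 in WT and 9.64, 9.68 and 9.58 in HET, so WT 2 lay among the HET arrays and WT 1 and WT 3 above them. KO read 9.67, 9.67 and 9.97. The summed linear signal of the list gave the same order, from 26695 on WT 2 to 46763 on WT 3 in WT and from 25441 to 26901 in HET. Set against WT 2 alone, with both arrays on which the list was high left out, the list's median was -0.05. That WT arm is a single array, and which arrays to leave out was chosen from these levels, so the value restates them. Without WT 3 alone the median was -0.34 and 5 members were 1.5-fold lower. Without WT 2 it was -0.95, and the genes that passed were Col4a2, Fst, Lama1, Nid1 and Srgn. In whole tissue, more cells of a type and more RNA per cell cannot be told apart.

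The members with large differences included the parts of Reichert's membrane. Lama1, the laminin alpha chain of that membrane, read 11.00, 9.57 and 11.59 in WT and 9.60, 9.58 and 9.41 in HET (-1.19). Fst, the activin antagonist follistatin, read 10.09, 6.62 and 10.41 in WT and 7.06, 7.21 and 7.38 in HET (-1.83). For Fst, WT 2 stood below all HET arrays, and the HET mean exceeded it by 0.60. For Lama1, WT 2 lay within the HET range. Srgn, the proteoglycan serglycin, read 11.63, 10.35 and 12.02 in WT and 10.02, 10.35 and 10.03 in HET (-1.20). Nid1, which links laminin to collagen IV, gave -0.86, and Lamc1, the laminin gamma chain, gave -0.74. The collagen IV chains Col4a1 (-0.67) and Col4a2 (-0.69) are also made by the yolk sac mesoderm and stood in that list too. Plat, tissue plasminogen activator, gave -0.99, Thbd, thrombomodulin, -0.65, Fabp3, a fatty acid binding protein, -1.04, and Stra6, a retinol transporter, -0.79. Lamb1, the laminin beta chain, at -0.54, and Pth1r, the parathyroid hormone receptor, at -0.55 came just short of 1.5-fold. Other members with strong yolk sac expression of their own differed little, such as Sparc, a collagen-binding protein, at -0.15, and Nid2 at 0.00.

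Several genes outside the list had the same array pattern, and were named after their values were seen. Slc6a2, the noradrenaline transporter, read 8.36, 6.34 and 9.28 in WT and 6.20, 6.30 and 7.08 in HET (-1.47). F3, tissue factor, read 8.90, 7.96 and 9.72 in WT and 7.89, 7.94 and 7.75 in HET (-1.00). Bmper, a modulator of bone morphogenetic proteins, gave -1.09. In each of the 3, WT 1 and WT 3 lay above all HET arrays and WT 2 near them. Among the genes named by the rule, Hs3st1, a heparan sulfate sulfotransferase, read 8.20, 6.40 and 9.17 in WT and 6.75, 6.90 and 6.52 in HET (-1.20, and -0.58 without WT 3). Doxl1 was raised on WT 3 alone, at 6.44, 6.17 and 8.62 in WT against 6.23, 6.05 and 6.10 in HET (-0.95, and -0.18 without WT 3).

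Trophoblast and decidual transcripts were uneven within both genotypes. Of 43 trophoblast genes on the array 26 were dim. Of the 17 tested 3 (17.6%) were at least 1.5-fold lower, beside 0.295% of all genes tested. None was 1.5-fold higher, and the median difference was 0.00. Prl7a1, a placental prolactin of giant cells, read 8.60, 7.78 and 10.70 in WT and 5.12, 7.21 and 9.25 in HET (-1.83). Prl2c5, a proliferin, read 7.61, 7.31 and 9.08 in WT and 5.28, 6.42 and 8.24 in HET (-1.35), and Prl3d3, a placental lactogen, gave -0.92. In the 3 genes HET 1 was the lowest of the 6 arrays, WT 3 the highest and HET 3 the next. Prl4a1 ran otherwise, at 8.86, 8.53 and 6.64 in WT and 6.14, 8.23 and 10.31 in HET (0.22). Without HET 3 its difference was -0.83. Prl5a1 gave -0.44, and 0.13 without HET 1. Of the 43 genes, 16, 15 and 15 lay above the 40th percentile on the WT arrays and 8, 13 and 15 on HET 1, HET 2 and HET 3. Psg29, a pregnancy-specific glycoprotein, was highest on WT 3 at 8.98, against 7.11 and 7.22 in WT and 5.97, 6.52 and 7.32 in HET.

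For the maternal decidua, 5 of 20 genes tested (25%) were at least 1.5-fold lower, beside 0.295% of all genes tested. The median difference was -0.12. Prl8a2, a decidual prolactin, read 9.40, 8.90 and 10.72 in WT and 6.50, 9.75 and 7.18 in HET (-1.86), so that HET 2 lay above 2 of the WT arrays. Erv3 had the same pattern, at 8.56, 8.19 and 10.17 in WT and 6.18, 9.38 and 6.32 in HET (-1.68). The granzymes of uterine natural killer cells were ordered differently. Gzmd read 7.23, 7.90 and 6.39 in WT and 4.45, 5.52 and 7.06 in HET (-1.49), and Gzme (-1.04) and Gzmf (-0.86) likewise had WT 2 highest and HET 3 above WT 3. Steroid synthesis, a function of giant cells and decidua, had 3 of 8 genes 1.5-fold lower (37.5%, beside 0.295%), with a median of -0.13. Cyp11a1, which makes pregnenolone from cholesterol, read 8.47, 7.13 and 8.54 in WT and 5.57, 6.33 and 7.40 in HET (-1.61). Star, which delivers cholesterol to it, read 8.88, 7.55 and 8.84 in WT and 6.24, 6.79 and 7.76 in HET (-1.49). For both, the 2 highest arrays were WT 1 and WT 3 and the lowest was HET 1. Hsd3b6 gave -0.62, and -0.24 without WT 3.

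Other neighbours showed no such block of 1.5-fold differences. None of 18 embryo-proper genes, 8 allantois genes or 6 adult blood genes tested was 1.5-fold apart, beside 0.326% of all genes tested. Of the 18 embryo-proper differences 15 were above 0, with a median of 0.11. The mean level of that list was 7.48, 7.32 and 7.56 in WT and 7.53, 7.53 and 7.58 in HET, so it was lowest on WT 2. Actc1, cardiac actin, read 10.03, 9.88 and 10.37 in WT and 9.92, 10.21 and 9.78 in HET. Tbx4, a factor of the allantois, ranged from 8.26 to 9.65 within HET. Its difference was 0.00 with an interval of -1.54 to 1.55, too wide to place it. That interval is from the model of all 9 arrays, and the SD was 1.63 in KO, 0.22 in WT and 0.70 in HET. With only the WT and HET arrays it ran from -0.79 to 0.79, still beyond 1.5-fold. En1 (0.23), Pax1 (0.20), Nkx2-5 (0.19), Elavl3 (0.13) and Nes (-0.05), all transcription factors or neural markers of the embryo, stayed within 0.23 of WT. Without WT 2, En1, Pax1 and Nkx2-5 gave 0.12, 0.04 and 0.08. In the allantois list Cdx1 gave 0.16, Hoxd11 0.05, Pitx1 0.04, Cdx2 0.01 and Tbx2 0.00. Of the adult blood genes the T cell markers Cd3e and Cd8a gave 0.24 and 0.02, the class II genes H2-Ab1 and H2-Eb1 gave -0.16 and 0.14, and Mpo, myeloperoxidase, gave 0.13. The share of neighbouring tissue in any difference was not tested.

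Sex-linked transcripts differed by array. Xist, transcribed from the inactive X chromosome, read 5.69, 10.65 and 11.00 in WT and 5.15, 10.56 and 5.76 in HET. Eif2s3y, on the Y chromosome, read 8.81, 8.15 and 4.34 in WT and 8.68, 7.87 and 8.48 in HET. Xist alone was high on WT 3, Eif2s3y alone on WT 1, HET 1 and HET 3, and both on WT 2 and HET 2. Uty (1.09) and Kdm5d (0.67), also Y-linked, followed Eif2s3y (1.24), and the 3 turned below 0 without WT 3, at -0.31, -0.09 and -0.14. With Eif2s3y as a covariate 31 genes were 1.5-fold apart, and the Rnh1 difference was -0.58.

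In the blood lineage, 1 gene, Kit, was 1.5-fold apart, and most differences were slightly below 0. All 3 globins tested had an interval inside 1.5-fold, with a median of -0.06, and so did all 13 genes of heme synthesis (median -0.07). The globins Hbb-bh1 and Hba-x gave -0.06 and -0.01. In heme synthesis Glrx5 gave -0.09, and Alas1, the housekeeping first enzyme, and Slc25a38, the glycine carrier of mitochondria, each gave 0.11. Of 33 erythroid genes none was 1.5-fold apart, beside 0.326% of all genes tested. Of their differences 29 were below 0, with a median of -0.08. The mean level of the 33 was 9.66, 9.41 and 9.58 in WT and 9.31, 9.36 and 9.68 in HET. HET 3 thus lay above all WT arrays, and the groups overlapped. The count below 0 therefore does not stand for a drop on every HET array. Of the 33 genes, 28 (84.8%) had an interval inside 1.5-fold, a smaller share than the 95.7% over all genes tested. Both shares are from the model that holds the KO arrays, and the part of the KO spread in this gap was not tested. Slc14a1, the urea transporter of red cells, had the largest difference of them, at 9.22, 8.81 and 9.57 in WT and 8.63, 8.63 and 8.64 in HET (-0.57, and -0.39 without WT 3). Lmo2, a bridging factor of the erythroid complex, gave -0.12, and Add2, a membrane skeleton protein, -0.22, both with overlap. The erythroid factors Gata1 (-0.02) and Klf1 (-0.07) were named after their values were seen, and both were at or above 0 without WT 1 or without HET 1. Among 17 blood progenitor genes, 16 differences were below 0, and 13 (76.5%) had an interval inside 1.5-fold. Kit, the stem cell factor receptor, was the only one of the 17 that was 1.5-fold apart. It read 8.66, 8.33 and 9.24 in WT and 7.99, 8.22 and 7.98 in HET (-0.68, interval -1.12 to -0.24). KO, at 8.88, 8.83 and 9.06, lay above HET by 0.86 (adjusted p = 0.0144). KO minus WT was 0.18 (adjusted p = 0.518 with limma). For Kit, WT 3 and WT 1 were the highest of the 6 arrays, as in the parietal endoderm list. The Kit difference was -0.43 without WT 3. Ikzf1, a lymphoid and progenitor factor, gave -0.32 with overlap, and Cbfb, the partner of the Runx factors, -0.12.

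**Figure D4:**
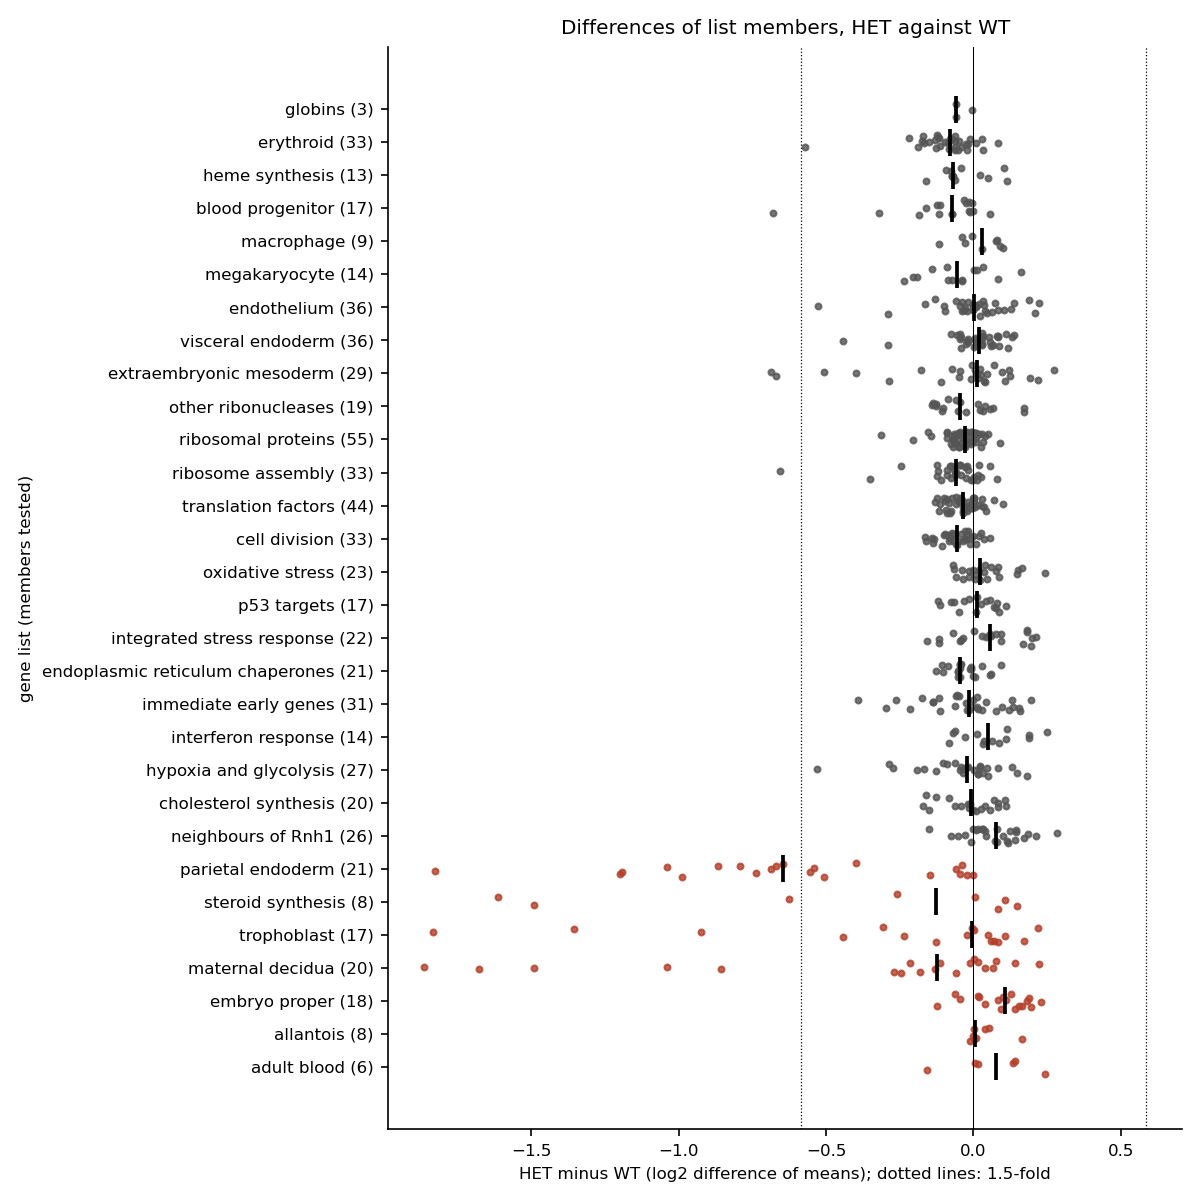
HET minus WT (horizontal axis, log2 difference of means) for the members tested of 30 gene lists (rows, number of members in brackets), 1 point a gene, with a bar at each median and dotted lines at 1.5-fold. The lists of the yolk sac's own cells and functions, in grey, have medians between -0.08 and 0.08, and among the neighbouring tissues and steroid synthesis, in red, parietal endoderm has a median of -0.65.

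For visceral endoderm and vessels the counts were near those of all genes tested, of which 0.326% were 1.5-fold apart and 95.7% had an interval inside 1.5-fold. Of 36 visceral endoderm genes none was 1.5-fold apart and 35 (97.2%) had an interval inside it, with a median of 0.02. The lowest was Gata6, a factor shared with parietal endoderm, at 10.87, 10.49 and 11.27 in WT and 10.40, 10.48 and 10.42 in HET (-0.44, and -0.25 without WT 3). Fgb, a fibrinogen chain, was the highest at 0.14. Of 36 endothelial genes, none was 1.5-fold apart and 34 (94.4%) had an interval inside it. Kdr, the main receptor for vascular endothelial growth factor, read 10.21, 10.31 and 10.19 in WT and 10.23, 10.30 and 10.12 in HET. Etv2, a master factor of blood and vessel fate, gave 0.21, and the related factors Sox17 (-0.29) and Sox7 (-0.53) were highest on WT 3. In the extraembryonic mesoderm list, 22 of 29 genes (75.9%) had an interval inside 1.5-fold, 2 were 1.5-fold lower, the collagen IV chains above, and Pdgfra (-0.51) was also highest on WT 3. No macrophage gene of 9 and no megakaryocyte gene of 14 was 1.5-fold apart. Of the 9 macrophage differences 5 were above 0 and 4 below, with a median of 0.03 and a lowest value of -0.12. Another 9 macrophage genes on the array were dim. The 3 with the smallest p, Tyrobp, Cx3cr1 and Trem2, gave 0.10, 0.09 and 0.08. Of the megakaryocyte genes Pdgfb, a growth factor of platelets, gave 0.16 with no overlap, Thbs1, thrombospondin, -0.14, and F2rl2, a thrombin receptor, -0.21.

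In 4 lists of ribosome, translation and cell division genes the medians lay between -0.06 and -0.03. In the same fit the median over all genes tested was -0.00. Centring the arrays on their medians puts it at -0.043, but that step shifts all genes of an array alike, these lists included. Of 55 ribosomal protein genes tested, all had an interval inside 1.5-fold, the median was -0.03 and 13 differences were above 0. For 14 of them every HET array lay below every WT array, beside 5.98% of all genes, and for 2 every HET array lay above. Rps3a1 had the largest difference (-0.31, with 10.41, 10.35 and 10.42 in WT and 10.29, 9.88 and 10.06 in HET). Ribosome assembly had 9 of 33 such genes, Utp18, Brix1 and Utp14a (-0.25) among them, and a median of -0.06. Translation factors had 11 of 44 and a median of -0.03, with 11 differences above 0, and cell division had 9 of 33 and a median of -0.05. Pcna, the replication clamp, read 11.84, 11.85 and 11.83 in WT and 11.68, 11.67 and 11.68 in HET (-0.16, interval -0.32 to -0.01). Rpl14 (-0.21), Rpl30 (-0.14), Eif1a (-0.09), Eif5b (-0.10), Mcm3 (-0.13) and Nusap1 (-0.16) also lay below WT, and Eif3k (0.10) above it. These differences were below 1.5-fold for all but Utp18, and no member of the 4 lists passed the adjusted test.

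In 6 lists of stress and signal responses no member was 1.5-fold apart, beside 0.326% of all genes tested. They were 23 oxidative stress genes, 17 p53 targets, 22 genes of the integrated stress response, 21 chaperones of the endoplasmic reticulum, 14 interferon response genes and 31 immediate early genes. Of the immediate early genes 26 (83.9%) had an interval inside 1.5-fold, beside 95.7% of all genes. Mt1, a metallothionein, read 12.26, 12.32 and 12.14 in WT and 12.39, 12.46 and 12.38 in HET (0.17). Gstm1, a glutathione transferase, gave 0.15, and Gpx2, a glutathione peroxidase, 0.24. Of the p53 targets Polk gave 0.11, Pmaip1 0.09 and Sesn1 -0.12. Phgdh, the first enzyme of serine synthesis, was 0.21 higher Asns, asparagine synthetase, 0.17, and Atf3, a stress-induced factor, 0.20. Pdia4, a disulfide isomerase, gave -0.13, and Pdia6 and the chaperone Hsp90b1 gave -0.10 and -0.09. Oas1a, an interferon-induced enzyme, gave 0.25, and Oasl1 and Psmb9 gave 0.19 each. Of the immediate early genes Klf4, with WT 3 highest, gave -0.39. Ier5 (-0.22) and Myc (-0.17) lay below WT in HET and above both in KO, where KO minus HET was 0.81 (adjusted p = 0.00121) and 0.58 (adjusted p = 0.0025). Of 27 genes of hypoxia and glycolysis the lowest was P4ha2, a collagen prolyl hydroxylase, at -0.53, with WT 3 highest, and P4ha1 and Bhlhe40 gave -0.19 and -0.27. Of 20 genes of cholesterol synthesis none was 1.5-fold apart, and Fdft1, Ebp and Srebf2 gave -0.15, -0.17 and 0.08.

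The 10 genes with the largest differences in each direction in KO against WT that passed there, leaving out Rnh1, were set beside HET. Of these 20, the HET and WT arrays overlapped in 19 and did not in 1, Sfrp2, a Wnt antagonist, at 6.96, 6.92 and 6.81 in WT and 7.04, 7.12 and 7.18 in HET (0.21). Over all genes tested 10.2% had no overlap, so this count is near that share. KO minus HET passed the test for 19, beside 21.8% of all genes tested. The 20 were chosen by KO minus WT, which uses the same KO arrays. From the 20, 6 genes were named after their values were seen. Jun, a transcription factor of the immediate early class, read 8.76, 8.44 and 8.62 in WT and 8.23, 8.80 and 8.38 in HET, while KO read 9.93, 10.23 and 9.91. HET minus WT was -0.14 (interval -0.48 to 0.21), while KO lay 1.55 above HET (adjusted p = 0.000906). Edn1, the vasoconstrictor endothelin, gave 0.01 (interval -0.22 to 0.24) in HET against WT and 1.34 in KO against HET (adjusted p = 0.000687). Vaultrc5, a small vault RNA, gave -0.02 (interval -0.33 to 0.28). Of the genes low in KO, Hgd, an enzyme of tyrosine breakdown, gave 0.19 in HET against WT and -2.07 in KO against HET (adjusted p = 0.000747). Gja5, a gap junction protein of arteries, gave 0.06 and -1.73 (adjusted p = 0.000964), and Slc22a2, an organic cation transporter, gave -0.04 and -1.66 (adjusted p = 0.000722). In all 6 the HET and WT arrays overlapped and the KO arrays lay apart from both.

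**Figure D5:**
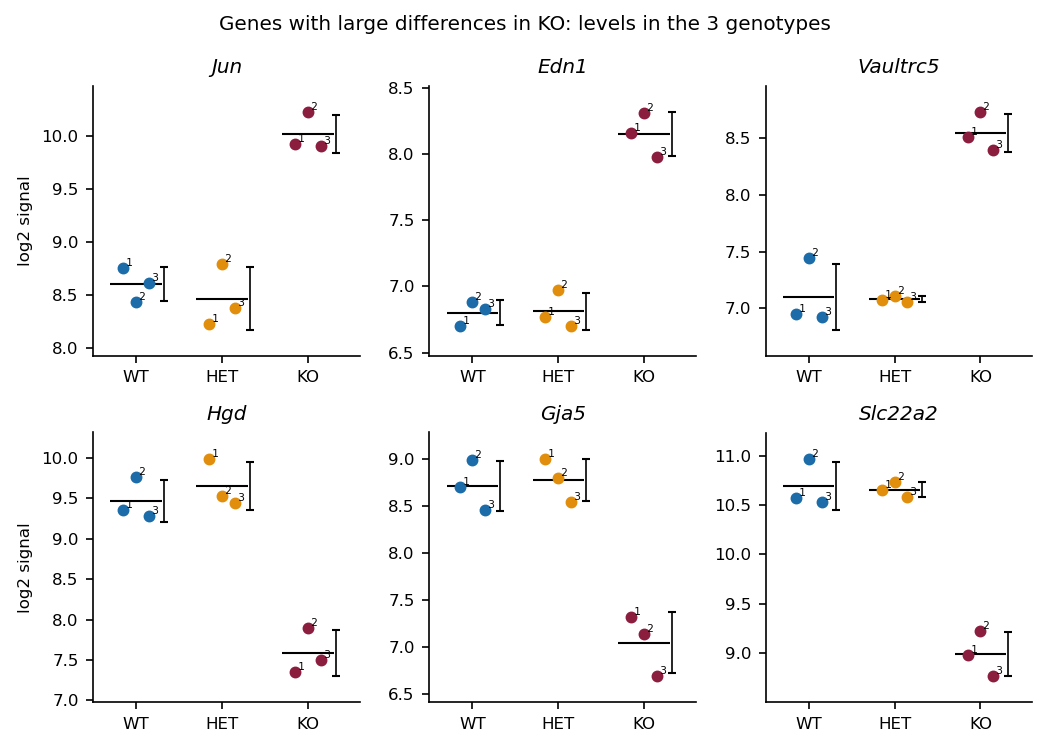
Log2 signal (vertical axis, own scale in each panel) of 6 genes with large differences in KO, on 9 arrays in 3 genotypes, with points numbered by replicate, bars for means and error bars for the SD (n = 3). HET points overlap WT points in every panel, and KO points lie apart, at 9.91 to 10.23 for Jun against 8.23 to 8.80 in HET.

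Another of the 20, Ctse, the protease cathepsin E, had a HET mean between those of WT and KO but a wide spread within HET. It was also named after its values were seen. It read 9.77, 9.72 and 9.68 in WT and 8.33, 8.58 and 9.82 in HET. KO read 7.23, 7.33 and 8.52. HET 3 lay above all WT arrays while HET 1 and HET 2 lay more than 1 below them, and the difference (-0.81, interval -1.75 to 0.12) was -0.52 without HET 1. Adh1, an alcohol dehydrogenase that oxidises retinol, ran the other way in HET, at 9.06, 9.38 and 8.77 in WT and 9.75, 9.66 and 9.12 in HET (0.44), while KO lay 1.81 below HET (adjusted p = 0.000964). Adhfe1 gave 0.45, and KO lay 0.90 below HET (adjusted p = 0.0041).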

How the data were processed

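Total RNA of 9 yolk sac samples, 3 per genotype, was hybridised to Affymetrix whole-transcript gene arrays from 100 ng of RNA, per the labels' protocols. According to the submitters' processing notes, RMA in Expression Console (version 1.2.1.20) gave the log2 signals that the authors deposited. No label or note names a genome build, and no coordinates are printed. Probe sets naming several genes (1618) or none (4952) were tested apart. A gene with more than 1 probe set (996 genes) was represented by the brightest. Tests used limma (3.58.1, under R 4.3.3) with all 9 arrays in 1 model, genotype as the factor, empirical Bayes defaults and Benjamini-Hochberg adjustment over 13207 genes. Precision is limited by the number of arrays.

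The members and the 32 gene lists were chosen with earlier results of these data known. Named genes are Rnh1, the 10 genes with the smallest p, the 8 with the largest difference and the 6 with the widest gap in each direction, up to 3 members of each list by smallest p, the 5 with the widest range in lists of neighbouring tissue, and up to 5 that follow each array. Predicted and small RNA symbols were passed over. Others are said to be named after their values were seen, as were Afp, Apoa1, Kdr, Nid1, Nid2, Sparc, Lamc1, Lamb1, Thbd and Pth1r. Alternatives covered the filter, probe sets, scaling, prior, array weights, covariates, the replicate number as a block and each array left out.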

Additional observations from a re-analysis of the deposited data

How the results depend on the processing

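0 genes passed the adjusted test under most alternatives, and 6 did with array weights, a fit that stopped before its convergence tolerance (Cyp11a1, Plat, Rnh1, Srgn, Star and Utp18), where the Rnh1 difference was -0.64. Leaving out 1 array gave 0 to 5 genes past the test, the 5 without WT 2 (Col4a2, Fst, Lama1, Nid1 and Srgn) and 1, Rnh1 at -0.62, without KO 1. Leaving out 1 array moved the count of genes at least 1.5-fold apart between 28 and 69, and the count of genes whose groups did not overlap up to between 2029 and 3070, as fewer arrays overlap less often. Without a filter 19074 genes had an interval inside 1.5-fold, because 19933 were tested. Without WT 1 and WT 3 together, chosen after the data were seen, which leaves 1 WT array, 106 genes were 1.5-fold apart and the parietal endoderm median was -0.05. With that list's level as a covariate, also added later, it was -0.06, a value near 0 that the adjustment of the members for their own mean gives by construction and that supports nothing. Rnh1 stayed below WT under every alternative run, between -0.65 and -0.60 with each array left out in turn. With the replicate number as a block 0 genes passed, 483 had an unadjusted p under 0.05 in limma and Rnh1 had an adjusted p of 0.896. Deviations of same-numbered WT and HET arrays correlated at -0.06, 0.35 and 0.42, and those of unlike-numbered ones at between -0.59 and 0.41. With so few arrays these values cannot settle whether the numbers pair the samples. With 3 arrays a group, the median half-width of the 95% interval was 0.19, which bounds what could be seen.

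Some named genes changed sign, most of them with small differences, and the cause was not tested. With arrays centred on their medians these were Afp (-0.04), Apoa1 (-0.01), Cd8a (-0.02), Cdx2 (-0.03), Edn1 (-0.03), Pitx1 (-0.00) and Tbx4 (-0.04). With quantile normalization these were Cd8a (-0.06), Edn1 (-0.06), Gata1 (0.02), Hoxd11 (-0.02), Kdr (0.00), Nid2 (0.01) and Tbx2 (0.03). With cyclic loess these were Cd8a (-0.07), Edn1 (-0.03), Gata1 (0.01), Hoxd11 (-0.03), Kdr (0.01), Nid2 (0.02) and Tbx2 (0.02). With array weights these were Cd8a (-0.10), Cx3cr1 (-0.01), Eif2s3y (-0.37), Elavl3 (-0.07), H2-Eb1 (-0.02), Kdm5d (-0.33), Kdr (0.03), Nes (0.04), Nid2 (0.05), Pax1 (-0.01), Prl4a1 (-1.30), Slc22a2 (0.10), Tbx2 (0.03), Uty (-0.44), Vaultrc5 (0.12) and Xist (1.37). With the Eif2s3y level as a covariate these were Actc1 (0.12), Afp (-0.02), Cdx2 (-0.01), Edn1 (-0.01), Gja5 (-0.08), Kdm5d (-0.10), Mpo (-0.06), Prl4a1 (-0.27) and Uty (-0.15). With the Xist level as a covariate these were Cd8a (-0.07), Cdx2 (-0.02), Kdr (0.01), Nes (0.04), Nid2 (0.00), Slc22a2 (0.00) and Vaultrc5 (0.02). Without WT 1 and WT 3 together these were Actc1 (0.09), Add2 (0.03), Afp (-0.04), Edn1 (-0.07), Fst (0.60), Gata1 (0.11), Gja5 (-0.21), Hba-x (0.01), Hgd (-0.10), Hs3st1 (0.32), Hsd3b6 (0.23), Jun (0.03), Klf1 (0.14), Klf4 (0.02), Mpo (-0.33), Polk (-0.07), Prl4a1 (-0.30), Slc6a2 (0.18), Sox7 (0.04), Sparc (0.01), Stra6 (0.15) and Uty (-0.04). With the parietal endoderm level as a covariate these were Actc1 (0.29), Afp (-0.06), Cx3cr1 (-0.01), Doxl1 (0.18), Edn1 (-0.07), Eif2s3y (-0.89), Fabp3 (0.08), Fst (0.25), Gja5 (-0.28), Hgd (-0.07), Hs3st1 (0.26), Kdm5d (-0.50), Klf1 (0.04), Mpo (-0.41), Polk (-0.06), Prl4a1 (-0.79), Slc6a2 (0.06), Sparc (0.00), Stra6 (0.21), Thbd (0.02) and Uty (-1.08). With each array left out in turn the sign turned, over the ranges given, for Actc1 (-0.24 to 0.02), Afp (-0.02 to 0.03), Cd8a (-0.10 to 0.15), Cdx2 (-0.09 to 0.07), Edn1 (-0.07 to 0.06), Eif2s3y (-0.14 to 2.10), Elavl3 (-0.01 to 0.21), Gata1 (-0.17 to 0.11), Gja5 (-0.07 to 0.20), Hba-x (-0.03 to 0.01), Kdm5d (-0.09 to 1.22), Kdr (-0.06 to 0.03), Klf1 (-0.19 to 0.04), Mpo (-0.09 to 0.36), Nes (-0.22 to 0.11), Nid2 (-0.03 to 0.03), Pitx1 (-0.02 to 0.11), Prl4a1 (-0.83 to 1.26), Prl5a1 (-1.06 to 0.13), Slc22a2 (-0.12 to 0.10), Tbx2 (-0.08 to 0.05), Tbx4 (-0.35 to 0.35), Uty (-0.31 to 1.93) and Vaultrc5 (-0.12 to 0.14).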
